A study of Mus musculus with 27 samples.

Results

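Histone acetyltransferases move the acetyl group of acetyl-CoA onto lysines of histones, which marks active promoters and enhancers. Outside mitochondria much of that acetyl-CoA is made from citrate by ATP citrate lyase (ACLY), so the enzyme deleted in this study supplies the substrate that these proteins use. The 9 genes described here were fixed as a list by name: Crebbp and Ep300, which encode the paralogs CBP and p300, the main writers of H3K27 acetylation; Kat2a and Kat2b, which encode GCN5 and PCAF, the main writers of H3K9 acetylation; and the MYST family genes Kat5, Kat6a, Kat6b, Kat7 and Kat8. They are 9 of 21887 coding genes that RefSeq annotates on GRCm38.p6 (mm10), and the list was chosen with earlier results of these data known. These enzymes work in large complexes, and MYST members also acetylate H4 and H2A. What is described is chromatin at the genes, not the activity or the amount of the enzymes.

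The chromatin was that of primary mouse hepatocytes kept in culture, mapped by CUT&RUN, in which an antibody directs cutting of DNA to the places its target occupies. The groups were Acly knockout cells (KO) in hypoxia-reperfusion culture (HR), wild-type cells (WT) in HR, and WT cells in normoxia, each with an antibody to H3K27ac and one to H3K9ac. The KO libraries are labelled AclyKO, and the series' design text takes them from Alb-cre:Aclyf/f mice, in which a Cre recombinase under the albumin promoter, active in hepatocytes, deletes a floxed Acly gene. Cells went into either culture 24 h after they were isolated, and the length of the culture is not given. A FLAG antibody for ACLY was used in WT HR and WT normoxia, and the labels do not say how the tag was brought into these cells. Each combination was 1 library, and the number of mice behind it is not given, so no difference below has a replicate check or a test. KO cells were mapped in HR alone, so the knockout can be described only there. The 3 IgG samples were not analysed here.

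The 16 liver RNA libraries of the series (4 each of KO IR, WT IR, KO sham and WT sham by their titles) carry Ensembl transcript identifiers without gene names, and 0 of their 111462 transcripts are paired with a gene in the tables used here. The design text describes sham or IR surgery on the mice, IR being ischemia-reperfusion in the series title, while the treatment labels of the same libraries read normoxia for sham and hypoxia-reperfusion for IR. RNA of the 9 genes was therefore not analysed, and neither was Acly RNA, which leaves the labels of genotype without that check. The labelled cell type was checked on marker genes: of 10 hepatocyte markers, 8 (Alb and Hnf4a among them) had an H3K27ac peak in each of KO HR, WT HR and WT normoxia. Of 12 markers of leukocytes, endothelium, stellate cells, fibroblasts and bile duct, 3 (Cd68, Lyve1 and Stab2) had one in each condition, and Ptprc, Pecam1, Col1a1 and Krt19 had none. The H3K27ac lists held 14418 peaks in KO HR, 8252 in WT HR and 5655 in WT normoxia, with median widths of 3845, 7410 and 10340 bp. The H3K9ac lists held 8837, 7593 and 6513 peaks, with median widths of 2961, 6400 and 7790 bp in the same order. Peak starts fell on a grid of 10 bp for 100.0% of peaks in every WT list and for 10.3% in the KO H3K27ac list, the KO H3K9ac list being likewise off the grid. The KO and WT lists were thus not made in the same way, and genotype cannot be told apart from that difference. Sequencing depth is unknown.

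H3K27ac stood at 8 of the 9 genes in KO HR, at 7 in WT HR and at 4 in WT normoxia, where a peak had to share at least 1 base with the gene or the 1 kb beside it. By the same rule 37.9% of all coding genes had H3K27ac in KO HR, 30.3% in WT HR and 22.6% in WT normoxia. H3K9ac stood at 6 of the genes in KO HR, 7 in WT HR and 6 in WT normoxia, against 35.9%, 36.4% and 31.9% of all coding genes. The H3K9ac counts include peaks with their maximum outside the gene, at Kat5 in KO HR and at Kat8 in WT HR and WT normoxia. The ACLY-FLAG list of WT HR had a peak at 2 of the genes, Kat2b and Kat7, against 13.2% of coding genes. The ACLY-FLAG list of WT normoxia holds 1 peak in all, which touches 0 genes (0.0%), so the FLAG conditions cannot be compared. Kat2a had no peak in any list, and Ep300, Crebbp, Kat2b and Kat6a had both acetylation marks in all 3 conditions.

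Most of these genes are long, and a long gene can meet a peak more often. Of the 9, 6 exceed the median coding gene length of 17.2 kb. They run from 38.4 kb (Kat7) to 173 kb (Kat6b). No closer match of length was made, so length is accounted for only by the side of the median. These 6 had H3K27ac at 6, 6 and 4 members in KO HR, WT HR and WT normoxia, against 47.2%, 38.4% and 29.8% of the coding genes over the median. The shorter 3, Kat2a, Kat5 and Kat8, had it at 2, 1 and 0 members, against 28.7%, 22.2% and 15.5% of the genes at or under the median. For H3K9ac the long members counted 4, 6 and 5 of 6 (44.6%, 44.0% and 38.1% of long genes) and the short members 2, 1 and 1 of 3 (27.1%, 28.8% and 25.7% of short genes).

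**Figure D1:**
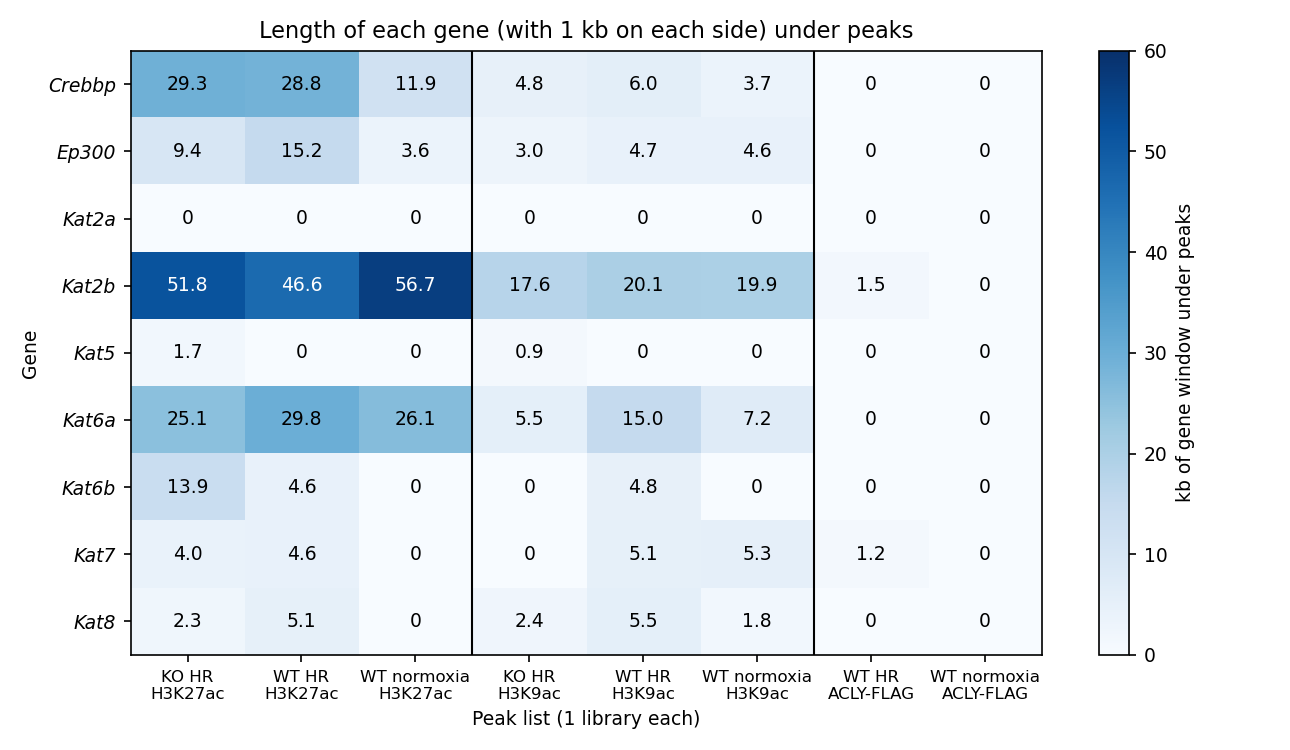
Kilobases of each gene and its 1 kb flanks that lay under peaks (color and printed value), by gene (rows) and peak list (columns, 1 library each). Kat2b has the darkest row, with 51.8, 46.6 and 56.7 kb under H3K27ac in KO HR, WT HR and WT normoxia, and Kat2a is at 0 in every list.

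Where transcription starts, the count followed the same order for H3K27ac. A promoter window of 300 bases (250 before a start to 50 after it, RefSeq, GRCm38.p6) is listed for 8 of the 9 genes, Kat6a having no entry. An H3K27ac peak covered such a window in 7 genes in KO HR (all but Kat2a), in 5 in WT HR (Crebbp, Ep300, Kat2b, Kat7 and Kat8) and in 2 in WT normoxia (Ep300 and Kat2b). Among the 17492 coding genes with a window the shares were 32.4%, 25.5% and 17.5%. H3K9ac covered a window in 4 genes in KO HR (Crebbp, Ep300, Kat2b and Kat8), in 5 in WT HR (Crebbp, Ep300, Kat2b, Kat6b and Kat7) and in 4 in WT normoxia (Crebbp, Ep300, Kat2b and Kat7), against 32.0%, 33.8% and 28.8%. The ACLY-FLAG peaks covered 1 window in WT HR, that of Kat7 (9.82% of genes), and 0 in WT normoxia (0.0%).

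The windows of 4 genes are shown because they mark the ends of this range. The Ep300 window (chr15:81585964-81586263, plus strand) lay under a peak in all 6 acetylation lists, the Kat7 window (chr11:95310197-95310496, minus strand) in 4 of them and under ACLY-FLAG, the outer Kat5 window (chr19:5610045-5610344, minus strand) in KO HR H3K27ac alone, and the Kat2a window (chr11:100712418-100712717, minus strand) in none. Sequences run 5′ to 3′ on the strand of the gene. Capitals mark the GC box, spelled GGGCGG, the CCAAT box, the E-box, spelled CACGTG, and the consensus of NRF1, each on either strand.
Ep300: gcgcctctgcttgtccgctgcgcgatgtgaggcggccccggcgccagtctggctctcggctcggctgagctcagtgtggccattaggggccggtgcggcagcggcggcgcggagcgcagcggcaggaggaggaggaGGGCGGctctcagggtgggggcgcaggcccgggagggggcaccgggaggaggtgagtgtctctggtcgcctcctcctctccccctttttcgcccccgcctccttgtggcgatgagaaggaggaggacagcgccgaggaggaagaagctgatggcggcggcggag
Kat7: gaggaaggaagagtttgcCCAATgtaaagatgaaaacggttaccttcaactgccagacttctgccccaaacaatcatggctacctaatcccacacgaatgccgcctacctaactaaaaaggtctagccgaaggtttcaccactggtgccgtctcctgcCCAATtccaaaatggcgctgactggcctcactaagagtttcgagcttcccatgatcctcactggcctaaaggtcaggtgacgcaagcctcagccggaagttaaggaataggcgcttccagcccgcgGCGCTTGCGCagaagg
Kat5: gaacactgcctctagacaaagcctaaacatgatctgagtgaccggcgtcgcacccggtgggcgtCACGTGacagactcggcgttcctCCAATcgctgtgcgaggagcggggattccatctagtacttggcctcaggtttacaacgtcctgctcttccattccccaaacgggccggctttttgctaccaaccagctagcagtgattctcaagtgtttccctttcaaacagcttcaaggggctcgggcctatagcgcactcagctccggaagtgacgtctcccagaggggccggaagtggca
Kat2a: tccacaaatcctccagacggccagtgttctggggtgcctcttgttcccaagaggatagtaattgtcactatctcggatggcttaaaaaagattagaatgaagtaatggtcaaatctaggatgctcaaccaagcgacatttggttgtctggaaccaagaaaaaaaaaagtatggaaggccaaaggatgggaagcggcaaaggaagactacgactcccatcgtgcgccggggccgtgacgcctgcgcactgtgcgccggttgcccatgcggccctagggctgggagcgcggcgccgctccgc

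These windows differ in base composition. G and C made up 72.3% of the Ep300 window, 53.0% of that of Kat7, 57.0% of that of Kat5 and 54.3% of that of Kat2a, against a median of 52.7% over all 32851 windows of the table. The Crebbp window was the richest of the members at 82.0%, above 99.5% of all windows, and the outer Kat2b window the poorest at 47.0%, above 28.4%. The GC box occurred in the windows of 5 of the 8 genes (Crebbp, Ep300, Kat5, Kat6b and Kat8; 35.7% of all windows) and CCAAT in 4 (Kat2b, Kat5, Kat7 and Kat8; 37.4%). A gene with 2 windows counts if either matched, while the shares are per window, so the gene counts are not like for like. Of the 12 windows of these genes, 7 held the GC box and 5 held CCAAT. The E-box occurred in Kat5 alone (7.15%), and the consensus of NRF1, a factor of many nuclear genes for mitochondrial proteins, in Kat7 alone (4.6%). The search covered 11 motifs on both strands. Of the others, ACGTG, which lies within the E-box and is the core that hypoxia-inducible factors bind, occurred in Kat2b, Kat5 and Kat8 (19.6%), as did GCGTG (32.4%). GGAAGT, which ETS factors bind, occurred in 4 genes (23.8%). TGACG, the core of sites for CREB and ATF factors, occurred in 5 (20.8%), and AANATGGCG, a YY1 site, in Kat7 alone (2.38%). The TATA box, spelled TATAAA (13.6%), and TGACGTCA (1.79%), which contains TGACG, occurred in 0. Counted by window, ACGTG and GCGTG each occurred in 3 of the 12, GGAAGT in 5 and TGACG in 6. A match describes letters in this window and says nothing of binding.

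Crebbp and Ep300 encode large coactivators that transcription factors recruit to enhancers. At Crebbp (chromosome 16, 4081334 to 4213957, minus strand) H3K27ac covered 29.3 kb of the gene and its flanks in KO HR, 28.8 kb in WT HR and 11.9 kb in WT normoxia. In WT normoxia it was 1 peak inside the gene (4197031 to 4208910) that stopped short of the promoter window. In WT HR it was 1 peak of 28980 bp (4186111 to 4215090), wider than 95.2% of its list, that ran over the start. KO HR had 4 narrower peaks, one of them over the start (4211057 to 4214360) and one deep in the gene (4101759 to 4106007). The largest signal stayed near one place, 13.4, 13.2 and 13.1 kb inside the gene in KO HR, WT HR and WT normoxia. H3K9ac was at the start in all 3 conditions. In all it covered 4.77, 5.99 and 3.73 kb of the gene and its flanks in KO HR, WT HR and WT normoxia. The KO HR length was made up of 2 peaks. The peak over the start (4210882 to 4213366) held 2485 bp. The other held 2285 bp, with its maximum 13.4 kb inside, where the KO HR H3K27ac was also highest. Crebbp thus had H3K27ac in every list, but its promoter window had it only in the HR lists.

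Ep300 (chromosome 15, 81586209 to 81652077, plus strand) had both marks over its start in every condition. H3K27ac covered 9.43 kb in KO HR, 15.2 kb in WT HR and 3.6 kb in WT normoxia. Both HR lists held a second H3K27ac peak inside the gene (81601368 to 81607035 in KO HR, 81599851 to 81608470 in WT HR), with maxima 19.3 and 19.4 kb from the start and 23 bp apart, while the WT normoxia list held none there. The WT HR peak ranked 6028 of 8252 by total signal, so it lies past the 5655 peaks of the WT normoxia list. The KO HR peak ranked 5531 of 14418, within that length. H3K9ac covered 2.99, 4.65 and 4.62 kb in KO HR, WT HR and WT normoxia. The H3K9ac peak over the start ranked high by total signal, within the first 12.6%, 10.7% and 23.5% of its list in the same order.

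**Figure D2:**
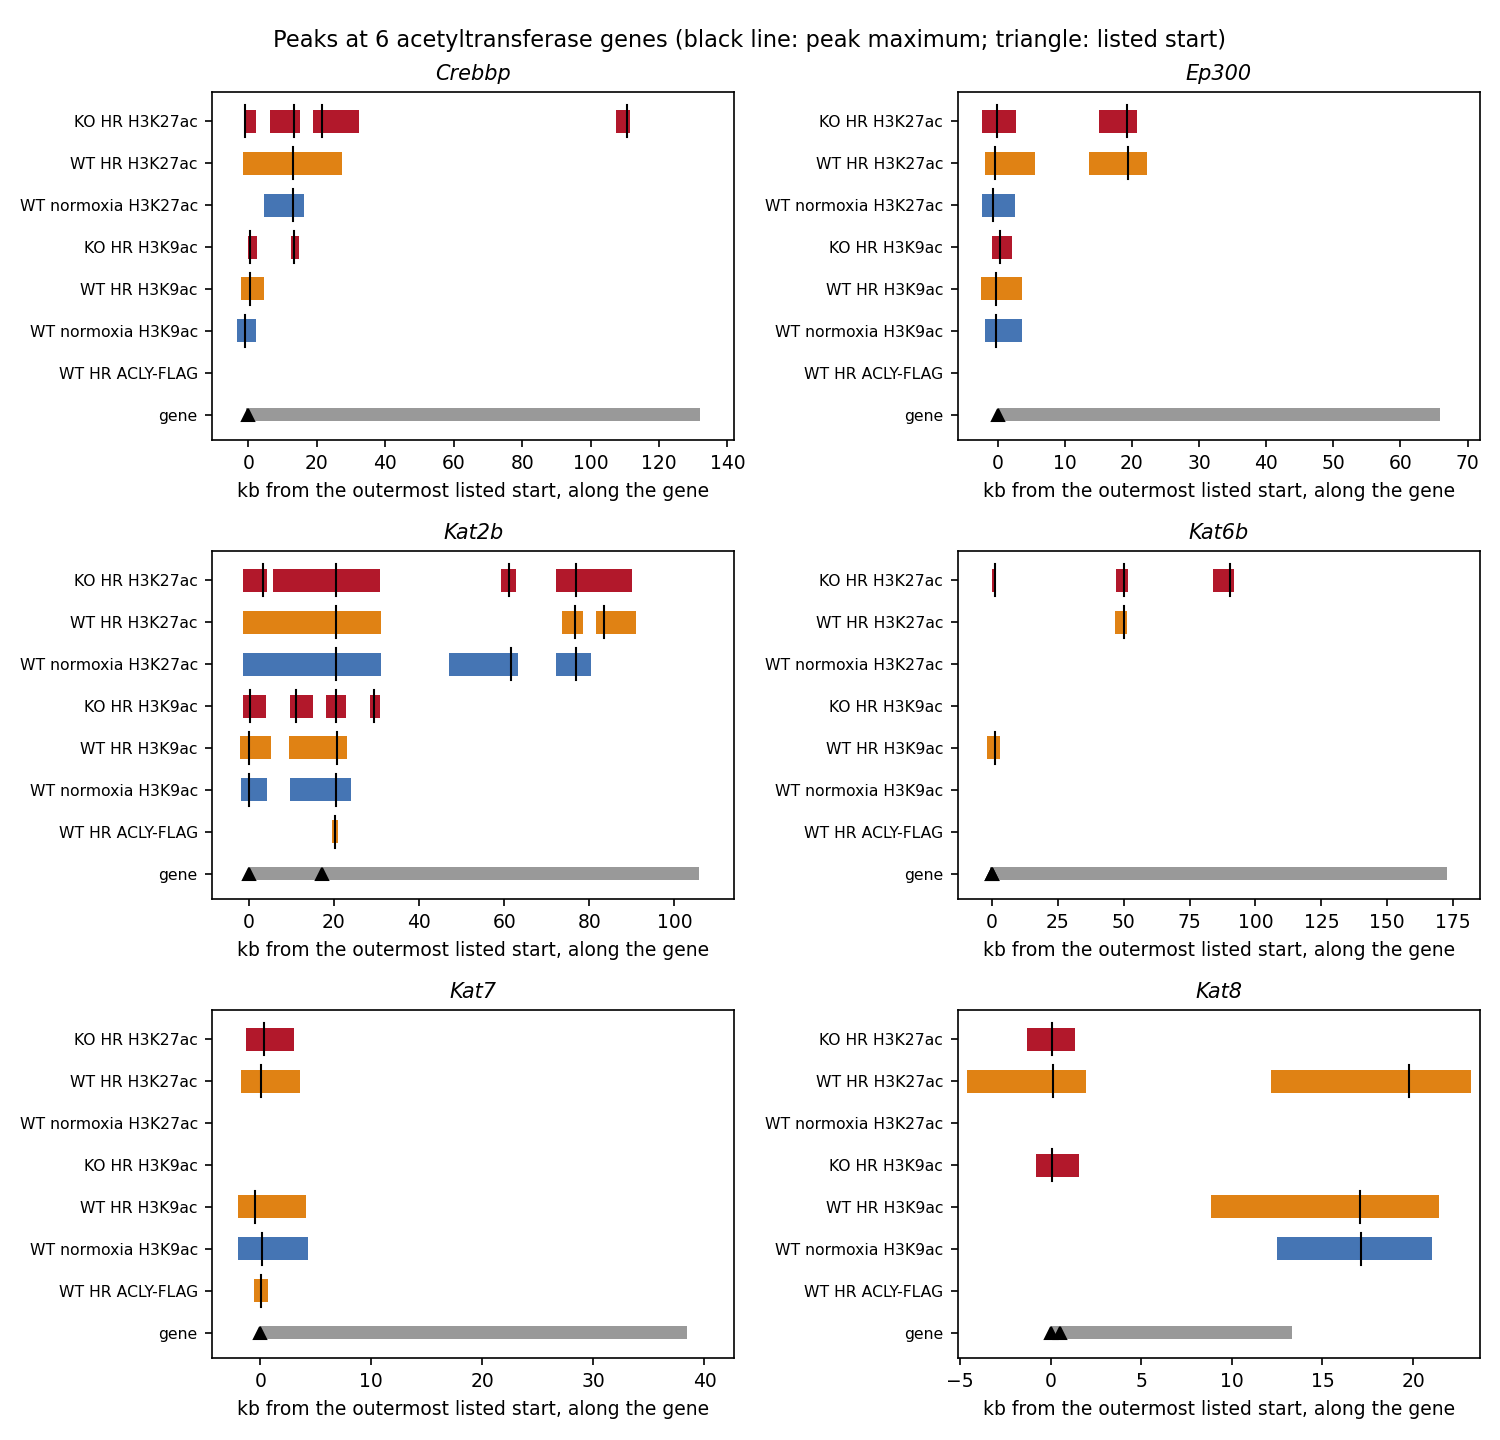
Peaks of 7 lists (rows, colored by condition) at 6 genes, drawn along each gene in kb from its outermost listed start, with black lines at peak maxima, a gray bar for the gene and triangles for listed starts. Crebbp, Ep300 and Kat6b have peaks inside the gene that the WT normoxia list does not show at the same width or at all, and the Kat2b maxima line up 20.3 to 20.7 kb from the start.

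The GNAT genes Kat2a and Kat2b encode close paralogs, and their chromatin was unlike in all 6 acetylation lists. Kat2b (chromosome 17, 53566774 to 53672721, plus strand) was the most broadly marked of the 9. H3K27ac lay on 51.8 kb in KO HR, 46.6 kb in WT HR and 56.7 kb in WT normoxia, that is on 48.0%, 43.1% and 52.5% of the gene and its flanks. Its leading H3K27ac peak stood within the first 0.721% of the KO HR list, 1.37% of the WT HR list and 3.24% of the WT normoxia list by total signal. By maximum signal it stood at 1.04%, 12.9% and 14.3%. H3K9ac lay on 17.6, 20.1 and 19.9 kb. In the WT lists the leading H3K27ac peak ran from before the first start to 53598020, and in KO HR the same stretch held 2 peaks (53565573 to 53571179 and 53572550 to 53597748).

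Within that stretch a single place held a maximum in 7 lists. The maxima of H3K27ac and H3K9ac in KO HR, WT HR and WT normoxia and of ACLY-FLAG in WT HR fell within 415 bp of each other, 20.3 to 20.7 kb from the first listed start and 3.11 to 3.53 kb past the second. These places were picked out after the peaks were listed. The ACLY-FLAG peak there (53586521 to 53588040, 1520 bp) lay whole inside an acetylation peak of all 6 lists, and its rank by total signal was in the middle of its list, at 50.1%. Of all 3666 ACLY-FLAG peaks of WT HR, 40.6% overlapped both marks of WT HR and 42.7% neither. Farther into Kat2b some H3K27ac peaks recurred and others did not. A maximum 59.6 to 59.8 kb past the second start was in the H3K27ac lists of KO HR, WT HR and WT normoxia. A peak with its maximum 44.1 to 44.5 kb past that start was in the KO HR and WT normoxia H3K27ac lists. The WT HR H3K27ac list held no peak there.

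Kat2a (chromosome 11, 100704746 to 100712485, minus strand) had no peak of any antibody within 1 kb. The nearest H3K27ac peaks were 23.0 kb away in KO HR, 19.8 kb in WT HR and 90.2 kb in WT normoxia, and the nearest H3K9ac peaks 23.9, 22.3 and 21.5 kb. A missing peak means that the signal did not pass the authors' threshold, not that the mark was absent. Kat2a lies 177 kb from Acly on the same chromosome.

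Among the MYST genes, Kat6a, Kat7, Kat8, Kat6b and Kat5 ranged from broad marks in every condition to peaks in KO HR alone. Kat6a encodes MOZ, a coactivator first known from leukemia fusions. Kat6a (chromosome 8, 22859442 to 22943259) had H3K27ac on 25.1 kb in KO HR, 29.8 kb in WT HR and 26.1 kb in WT normoxia. The leading peak stood within the first 3.46%, 6.46% and 15.8% of these lists by total signal. By maximum signal it stood at 10.9%, 17.2% and 45.1%. Its maximum was at 22882738, 22882735 and 22882735, so its place hardly moved. H3K9ac lay on 5.53, 15.0 and 7.16 kb. The HR lists had a second H3K9ac peak around that place (22881647 to 22884858 in KO HR, 22879131 to 22885690 in WT HR), which the WT normoxia list did not hold.

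Kat6b encodes MORF, the paralog of MOZ. Kat6b (chromosome 14, 21499216 to 21672478, plus strand), the longest of the 9 at 173 kb, had 3 H3K27ac peaks in KO HR, 1 in WT HR and 0 in WT normoxia, over 13.9, 4.64 and 0 kb. The peak shared by the HR lists lay 50.2 and 50.3 kb inside the gene (21546852 to 21551248 in KO HR, 21546401 to 21551040 in WT HR). KO HR alone had one over the start (21499735 to 21501269) and one 90.2 kb inside. For H3K9ac, WT HR had a peak over the start (21497911 to 21502960), and KO HR and WT normoxia had 0 peaks.

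Kat7 encodes HBO1, which acetylates histones near replication origins and promoters. All peaks at Kat7 (chromosome 11, 95271853 to 95310246, minus strand) lay over its start, the window shown above. H3K27ac covered 4.02 kb in KO HR, 4.58 kb in WT HR and 0 kb in WT normoxia. H3K9ac covered 0 kb in KO HR, 5.12 kb in WT HR and 5.33 kb in WT normoxia. The WT HR ACLY-FLAG peak (95309551 to 95310760) had its maximum 0.061 kb from the start and 50 bp from the H3K27ac maximum of WT HR. By total signal it ranked at 68.9% of its list. In KO HR the starts of Kat5, Kat6b and Kat7 lay under H3K27ac and not under H3K9ac.

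Kat8 encodes MOF, the main writer of H4K16 acetylation. At Kat8 (chromosome 7, 127912517 to 127925838, plus strand) the marks lay at different ends of the gene in different lists. H3K27ac covered 2.34 kb in KO HR, 5.12 kb in WT HR and 0 kb in WT normoxia. The KO HR peak (127911199 to 127913853) and the first WT HR peak (127907881 to 127914470) lay over the start, and the WT HR peak also reached the neighbor Bckdk. H3K9ac was over the start in KO HR alone (127911675 to 127914061). In WT HR (127921351 to 127933960) and WT normoxia (127925001 to 127933550) the H3K9ac peak only reached into the 3′ end, with its maximum outside Kat8 and with Prss36 and Prss8 under it. The same holds for the second WT HR H3K27ac peak (127924671 to 127935700), so these peaks cannot be assigned to Kat8.

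Kat5 encodes TIP60, the catalytic subunit of a complex that acetylates H4 and H2A and acts in DNA repair. Kat5 (chromosome 19, 5603014 to 5611556, minus strand) had peaks in KO HR alone. Its H3K27ac peak (5609180 to 5610884, 1705 bp) covered both listed starts and was narrow, wider than 2.14% of its list. It ranked 13919 of 14418 by total signal, close to the end of the list. Its H3K9ac peak (5601240 to 5602954) lay outside the gene, beyond the 3′ end and over Rnaseh2c, at 97.3% of its list. The WT lists had no peak of either mark closer than 23.5 kb.

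Ranks by total signal within a list show how far each gene stood from the end of the list. For H3K27ac the median best rank of the marked members was 26.9% in KO HR, 25.3% in WT HR and 38.8% in WT normoxia, and for H3K9ac 47.0%, 36.0% and 59.7%. Lists of different lengths make these ranks no measure of change. By total signal, Kat2b and Kat6a were the 2 best-ranked members for H3K27ac in all 3 lists, and Ep300 and Kat2b for H3K9ac. By maximum signal both pairs still led in KO HR, and the H3K9ac pair led in WT normoxia. The other lists changed order. In WT normoxia H3K27ac, Ep300 (26.9%) stood ahead of Kat6a (45.1%). In WT HR H3K27ac, Ep300 stood ahead of Kat2b (12.9%) and Kat6a (17.2%). In WT HR H3K9ac, Kat2b (57.8%) stood behind Crebbp, Kat6a and Kat7 (56.4%). Total signal grows with the width of a peak: by the maximum signal the H3K27ac medians were 25.0%, 43.4% and 36.0%.

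**Figure D3:**
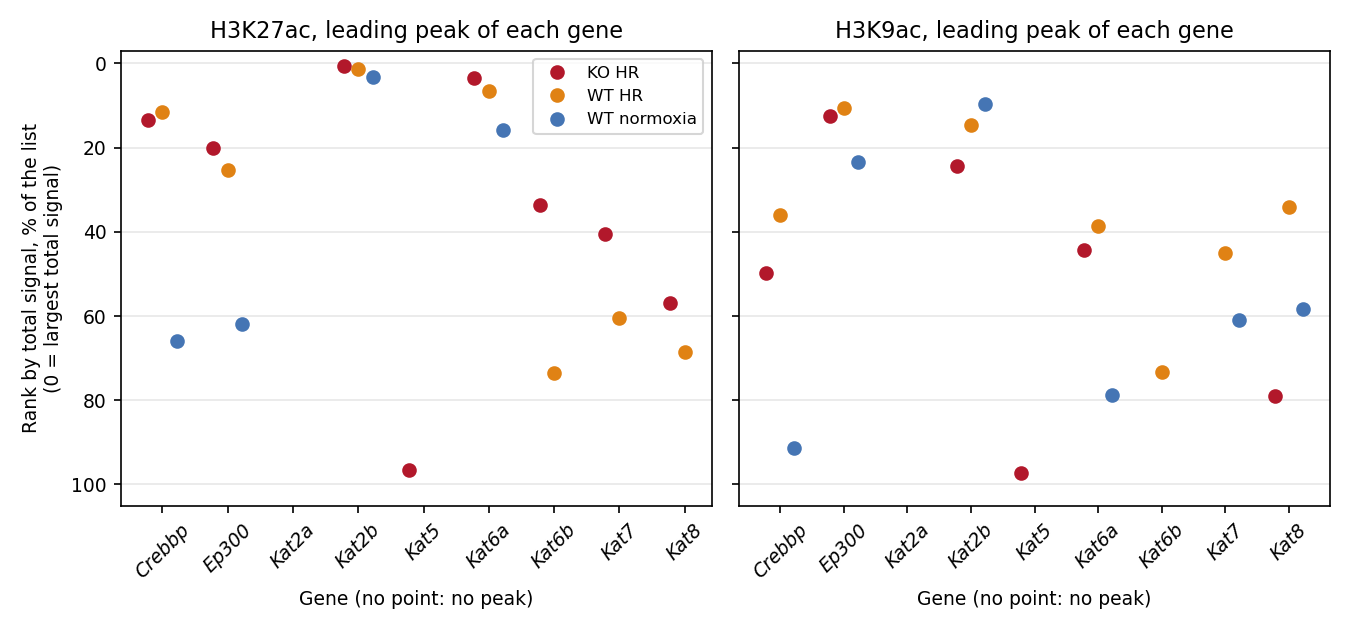
Rank by total signal of the leading peak of each gene, in percent of its list (0 is the largest total signal), for H3K27ac (left) and H3K9ac (right), 1 point per condition and no point where a gene had no peak. Kat2b sits at 0.721%, 1.37% and 3.24% for H3K27ac in KO HR, WT HR and WT normoxia, and Kat5 near the end at 96.5% (H3K27ac) and 97.3% (H3K9ac) in KO HR alone.

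The first comparison was WT HR with WT normoxia. A gain means at least 1 peak in the first list named and none in the second, and a loss the reverse. H3K27ac was gained at 3 members, Kat6b, Kat7 and Kat8, with 0 losses, while 8.38% of all coding genes had a gain and 0.699% a loss. When the WT HR list was shortened to the 5655 peaks with the largest total signal, the length of the WT normoxia list, 1 gain was left, at Kat7. The leading peak at Kat8 was number 5656, 1 place past that limit, but it is the one at the 3′ end, and the peak over the Kat8 start was number 6910. Among peaks above the median total signal of each list, none of these 3 gains was left, and the gains were at Crebbp and Ep300. H3K9ac was gained at 1 member, Kat6b, with 0 losses, against 5.92% and 1.45% of coding genes. At promoter windows H3K27ac was gained at Crebbp, Kat7 and Kat8 (3 of 8, against 8.46%, with 0 losses against 0.48%) and H3K9ac at Kat6b (1 of 8, against 6.14%, with 0 losses against 1.09%).

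The second comparison was KO HR with WT HR. H3K27ac was gained at 1 member, Kat5, and lost at 0, against 8.31% and 0.672% of coding genes. With both lists at 5655 peaks there was 1 gain, at Kat6b in place of Kat5, and 1 loss, at Kat7, and H3K27ac was left at 5 members in KO HR (Crebbp, Ep300, Kat2b, Kat6a and Kat6b). H3K9ac was gained at 1 member, Kat5, where the peak lies outside the gene, and lost at 2, Kat6b and Kat7, against 3.46% and 3.97% of coding genes. With both H3K9ac lists at 6513 peaks there were 0 gains and 3 losses, at Kat6b, Kat7 and Kat8. The Kat8 loss rests on the WT HR peak at the 3′ end, which cannot be assigned to Kat8. The KO HR peak over the Kat8 start was number 6974, past that limit. At promoter windows H3K27ac was gained at Kat5 and Kat6b (2 of 8, against 7.77%, with 0 losses against 0.8%). H3K9ac was gained there at Kat8 (1 of 8, against 3.09%) and lost at Kat6b and Kat7 (2 of 8, against 4.93%). All of these rest on 1 library each and on lists made differently for KO and WT cells.

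Both marks stood together at 6 members in KO HR, 7 in WT HR and 4 in WT normoxia, against 31.7%, 27.3% and 20.0% of coding genes. These counts take any peak in the gene or within 1 kb. They include Kat5 in KO HR, whose H3K9ac peak lies outside the gene, and Kat8 in WT HR, whose H3K9ac peak cannot be assigned to it. H3K27ac without H3K9ac occurred in KO HR alone, at Kat6b and Kat7 (6.25% of coding genes). H3K9ac without H3K27ac occurred in WT normoxia alone, at Kat7 and Kat8 (11.9% of coding genes), and at Kat8 that peak belongs to the 3′ end. In the full lists Kat7 therefore carried H3K9ac alone in WT normoxia, both marks in WT HR and H3K27ac alone in KO HR. Its KO HR H3K27ac peak ranked 5820 of 14418 by total signal, and it was not kept with the lists at 5655 peaks. These states rest on 1 library each and on lists made differently for KO and WT cells.

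By length covered, H3K27ac lay on 21.2% of the summed gene windows in KO HR, 20.8% in WT HR and 15.2% in WT normoxia, against 6.55%, 7.17% and 6.54% over all coding genes. H3K9ac lay on 5.28%, 9.42% and 6.58%, against 2.68%, 4.94% and 5.12%. ACLY-FLAG lay on 0.422% in WT HR, against 0.483%. Much of the H3K27ac length was at Kat2b and Kat6a. They held 51.8 and 25.1 of 138 kb in KO HR and 46.6 and 29.8 of 135 kb in WT HR. In WT normoxia they held 56.7 and 26.1 of 98.2 kb, and the next were Crebbp, at 8.82% of its window, and Ep300, at 5.31%. The KO HR H3K9ac list covered less than the WT HR list genome-wide as well, 30.3 against 57.8 Mb, with narrower peaks. For H3K27ac, maxima recurred at the members about as in the whole lists: 9 of 18 KO HR H3K27ac peaks had a WT HR maximum within 500 bp (44.3% of the list), and 5 of 11 WT HR peaks a WT normoxia maximum (49.7%). For H3K9ac, 3 of 11 KO HR peaks had a WT HR maximum that near (56.1% of the list), and 5 of 9 WT HR peaks a WT normoxia maximum (63.6%).

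The enzymes work in complexes, and lists of their partners were counted in the same way. The shares of all coding genes to set beside them are 37.9%, 30.3% and 22.6% for H3K27ac and 35.9%, 36.4% and 31.9% for H3K9ac in KO HR, WT HR and WT normoxia. Between WT HR and WT normoxia 8.38% of coding genes gained H3K27ac, 0.699% lost it and 5.92% gained H3K9ac. Between KO HR and WT HR 8.31% gained H3K27ac, 0.672% lost it and 3.97% lost H3K9ac. For the partners, gains and losses were not recounted with lists of equal length. They rest on 1 library per condition, and the KO and WT lists were made differently. Of 31 subunits of MYST complexes, 25 had H3K27ac in KO HR, 21 in WT HR and 14 in WT normoxia, and 25, 26 and 21 had H3K9ac. Between WT HR and WT normoxia 8 of them gained H3K27ac, among them Brd1, a scaffold of the HBO1 complex, and Ing4 and Ing5, which read H3K4 methylation, and 1, Jade2, lost it. Of 17 subunits of SAGA and ATAC, the GCN5 and PCAF complexes, 8, 9 and 7 had H3K27ac and 12, 15 and 13 had H3K9ac. Between KO HR and WT HR Sgf29, Supt20 and Taf5l lost H3K27ac while Supt7l and Wdr5 gained it, and Sgf29, Taf5l and Yeats2 lost H3K9ac. Of 12 other acetyltransferases, 8, 7 and 6 had H3K27ac and 8, 9 and 5 had H3K9ac. Atf2, Naa40, Ncoa1 and Ncoa3 gained H3K9ac between WT HR and WT normoxia.

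The opposing enzymes and the readers were marked as follows, with the same limits on gains and losses. Of 16 histone deacetylases, 9 had H3K27ac in KO HR, 6 in WT HR and 5 in WT normoxia, and 8, 9 and 9 had H3K9ac. Hdac11, Hdac2 and Sirt1 gained H3K27ac between KO HR and WT HR, and Hdac4 lost H3K9ac. Of 10 readers of acetyl-lysine, 7, 7 and 5 had H3K27ac and 6, 8 and 6 had H3K9ac. Mllt3, the reader AF9, gained both marks between WT HR and WT normoxia and lost H3K9ac between KO HR and WT HR. ACLY-FLAG peaks in WT HR stood at 11 of the 31 MYST subunits, 4 of the 17 SAGA and ATAC subunits, 3 of the 12 other acetyltransferases, 5 of the 16 deacetylases (Hdac1 to Hdac5) and 2 of the 10 readers, against 13.2% of coding genes.

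**Figure D4:**
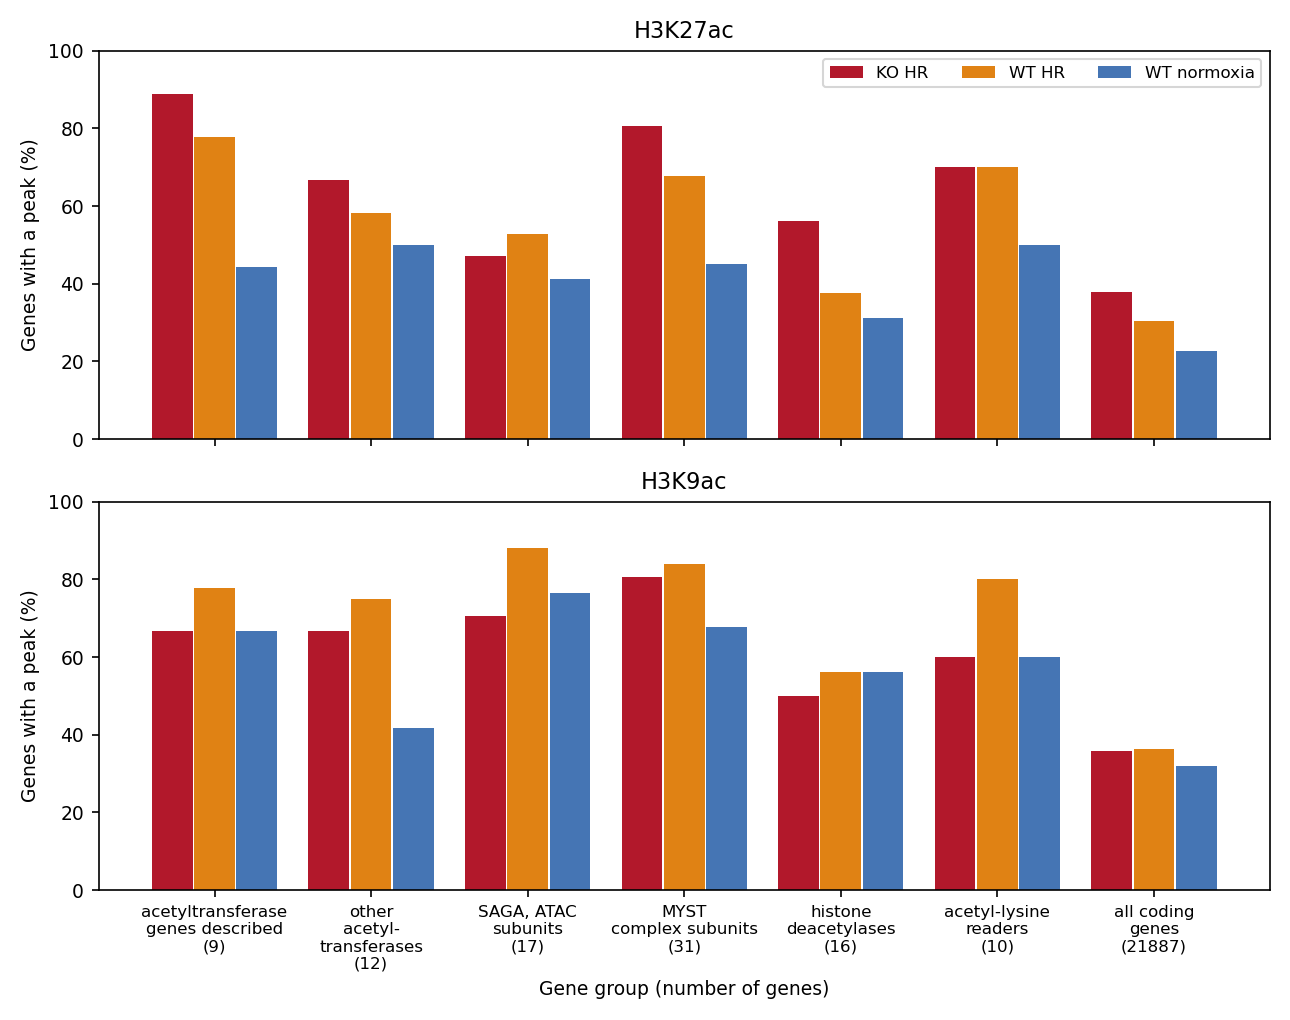
Percent of genes with an H3K27ac (top) or H3K9ac (bottom) peak in the gene or within 1 kb, by gene group (x axis) and condition (color, 1 library each). For H3K27ac the 9 acetyltransferase genes stand at 88.9%, 77.8% and 44.4% in KO HR, WT HR and WT normoxia, and all coding genes at 37.9%, 30.3% and 22.6%.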

How the data were processed

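The authors deposited CUT&RUN peak lists in which each peak has a summed and a maximum signal (unit: signal, or coverage). Per the submitters' processing notes the build was mm10 and Trimmomatic and kallisto were used; the peak caller, its threshold and any scaling are not given in the sources used here. From these lists the peaks that share at least 1 base with a RefSeq gene (GRCm38.p6) or its 1 kb flanks were counted for 21887 coding genes, ranked by summed signal, and compared between lists, with Python 3.11.15, pandas 2.3.3 and numpy 2.4.6. The overlap code was tested on simulated data and against bedtools 2.31.1. The members and gene lists were chosen with earlier results of these data known. In other lists at most 6 genes per comparison were named, some genes were passed over, and some comparisons were left out. With 1 library per condition no test was run. Of 27 samples, 8 were used; the planned RNA test was not run, because the transcript identifiers are not paired with genes here. Depth is unknown. Alternatives were another window, overlap, list length, threshold and rank.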

Additional observations from a re-analysis of the deposited data

How the results depend on the processing

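Counts of members with peaks, gains and losses were recomputed with 5 kb flanks and with an overlap of at least 500 bases, and all 16 counts under each stayed within 1.5 times. Counted at promoter windows, H3K27ac in WT normoxia stood at 2 members, ACLY-FLAG in WT HR at 1, and H3K27ac gains in KO HR against WT HR at 2. Among peaks above the median total signal of each list, H3K27ac stood at 4 members in WT HR and 2 in WT normoxia, H3K9ac at 2 in WT normoxia and ACLY-FLAG at 0. There KO HR against WT HR had 2 H3K27ac gains (Kat6b and Kat7) and 0 H3K9ac gains, and WT HR against WT normoxia had 2 H3K27ac gains (Crebbp and Ep300) and 4 H3K9ac gains (Crebbp, Kat6a, Kat7 and Kat8). KO HR against WT HR had 2 H3K9ac losses there, at Kat7 and Kat8. The Kat8 gain and loss of H3K9ac rest on the WT HR peak at the 3′ end, which cannot be assigned to Kat8. With lists of equal length H3K27ac stood at 5 members in KO HR, and WT HR against WT normoxia had 1 H3K27ac gain. KO HR against WT HR had 1 H3K27ac gain (Kat6b), 1 H3K27ac loss (Kat7), 0 H3K9ac gains and 3 H3K9ac losses, since fewer peaks enter. The Kat8 loss among these again rests on the peak at the 3′ end. ACLY-FLAG stood at 0 members in WT HR. Its list of 3666 peaks was cut to 1, so this count cannot show dependence on list length. In the gene body alone the H3K9ac gain of KO HR was 0. Covered shares in the gene body alone were 20.4% (WT HR) and 15.3% (WT normoxia) for H3K27ac, 4.86%, 8.58% and 5.81% for H3K9ac in KO HR, WT HR and WT normoxia, and 0.352% for ACLY-FLAG. With lists of equal length they were 16.8% (KO HR) and 15.8% (WT HR) for H3K27ac and 4.04% for KO HR H3K9ac. For WT HR ACLY-FLAG the share was 0.0%, with 1 peak left in the list. Median ranks by maximum signal were 25.0%, 43.4% and 36.0% for H3K27ac and 59.7%, 56.4% and 47.7% for H3K9ac in KO HR, WT HR and WT normoxia, and 51.3% for ACLY-FLAG. By mean signal they were 33.2%, 45.8% and 42.9%, then 59.4%, 45.6% and 55.2%, and 35.7%. Beyond the equal-length lists the cause was not tested. The RNA alternatives were not run. No paired analysis was possible because the results come from no test and each condition is 1 library. Unknown depth limits every missing peak.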

Other observations

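Where a member had no peak, the nearest one lay at other genes. For Kat2a the nearest H3K9ac peak was at Rab5c in KO HR, WT HR and WT normoxia, 23.9, 22.3 and 21.5 kb away. Around Kat5 the WT lists had their nearest acetylation peaks at Rela, a subunit of NF-kappaB. For Kat6b the nearest H3K9ac peaks were at Samd8, 77.5 kb away in KO HR and 77.2 kb in WT normoxia. For Kat7 the nearest H3K9ac peak in KO HR was at Slc35b1, 73.9 kb away, and the nearest H3K27ac peak in WT normoxia at Spop, 102 kb away. The nearest ACLY-FLAG peaks of WT HR lay 469 kb from Crebbp, 119 kb from Ep300, 382 kb from Kat6a, 445 kb from Kat6b and 35.4 kb from Kat8.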
